A study of Mus musculus with 2 samples.

Results

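Cycling lymphocytes are T and NK cells that express the genes of DNA replication and mitosis. They were followed here in scRNA-seq of living CD45+ leukocytes sorted from mouse lung, and 63 of the 8451 cells that passed the limits on quality belonged to them. The cells were chosen by their own counts of unique transcripts (UMIs), with a gene that a table does not list taken as 0. A cell had to hold at least 200 genes and no more than 15% mitochondrial UMIs. It had to hold at least 4 UMIs in sum of Mki67, the nuclear marker of dividing cells, Top2a, the topoisomerase that untangles replicated DNA, Birc5, a subunit of the complex that steers chromosomes at mitosis, and Ube2c, an enzyme that marks mitotic proteins for destruction. It also needed 2 or more UMIs of the CD3 chains (Cd3e, Cd3d and Cd3g) or 2 or more of the NK receptors Ncr1 and Klrb1c. Cells with 10 or more UMIs in sum of the macrophage genes Plet1, Car4, Atp6v0d2, Marco, C1qa, C1qb, C1qc and Ms4a7 were left out.

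The study compared 2 libraries, each a pool of CD45+ lung cells from 3 wild-type C57BL/6N mice of matched age and sex. The BLM library was taken 15 days after intratracheal bleomycin, the drug that injures the alveolar epithelium and is used to model pulmonary fibrosis, and the naive library came from untreated mice. The question was how the immune cells of the fibrotic lung differ from those at rest. With 1 library for each condition and no record of which mouse a cell came from, nothing could be tested between the conditions, and the intervals below, exact at 95%, cover counting error only.

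T cells that meet antigen leave quiescence, grow and divide, and those that carry the CD4 or the CD8 co-receptor do so under different cytokines. Regulatory T cells (Tregs), defined by the transcription factor Foxp3, restrain other lymphocytes and in injured tissue also act on repair. Many lung Tregs bear the IL-33 receptor ST2, encoded by Il1rl1. NK cells kill without antigen receptors and carry granzymes such as the product of Gzma.

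The BLM table held 4714 barcodes and 22490782 UMIs, and the naive table held 4062 barcodes and 18019004 UMIs. Of these, 4526 and 3925 cells passed. The cycling lymphocytes were deep cells, with a median of 6915 UMIs in BLM (2534 to 21654) and 9014 in naive (3668 to 35760), against 2511 and 2526 in the other T and NK cells. In sum they held 323889 and 256980 UMIs, which set the precision of every level below. None of the 22 barcodes that occurred in both tables belonged to a cycling lymphocyte. No cell was removed as a doublet, and 3 BLM and 2 naive members lay among the 3% of cells with the highest Scrublet doublet scores in their library.

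Trac, the constant region of the T cell receptor alpha chain, was the marker that the choice of cells did not use. It was present in 37 of 39 BLM and 23 of 24 naive members. Both naive NK cells held 1 Trac UMI and no CD3 UMI, so a single Trac UMI does not mark a T cell. The BLM members without Trac were the single NK cell and a cell described below that carried type 2 cytokine genes. Several members also held genes of other cell types. Cells with at least 50 UMIs of a dendritic cell or neutrophil list, or at least 10 of a B cell list, numbered 2 of 39 in BLM and 5 of 24 in naive. In naive, 4 of these cells held 141 to 507 UMIs of the dendritic cell list and 80 to 189 of Cd74, the MHC class II invariant chain, and 1 of them lacked Trac. Whether such cells were doublets was not tested, and the MHC class II genes and the lists of other cell types are given with and without them.

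The limit on cycling genes fell in a sparse stretch of the counts. Among T and NK cells with a sum below it, 4 BLM cells held 3 UMIs, 19 held 2, 88 held 1 and 678 held none, and in naive 0 held 3, 10 held 2, 53 held 1 and 758 held none. Just inside it, 2 BLM cells held 4 UMIs, 1 held 5 and 1 held 6, and in naive the numbers were 1, 2 and 1. The other 35 and 20 members held 9 or more, and the median sum was 25 in BLM (4 to 83) and 23 in naive (4 to 132).

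Cycling lymphocytes made up 39 of 4526 BLM cells, a share of 0.862% (Clopper-Pearson interval 0.613 to 1.18%), and 24 of 3925 naive cells, a share of 0.611% (0.392 to 0.908%). Among T and NK cells alone they were 39 of 828, or 4.71% (3.37 to 6.38%), and 24 of 845, or 2.84% (1.83 to 4.20%). Both pairs of intervals overlapped. These shares were counted in the full-depth tables, and with each cell thinned to 1000 UMIs the T and NK shares averaged 1.8% and 0.428%.

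Which T or NK lineages cycled was read from fixed gates on each cell. A T cell with at least 1 Foxp3 UMI went to the Foxp3 class, and the remaining T cells were sorted by the larger of Cd4 and Cd8a plus Cd8b1, then by Trdc, the constant region of the delta chain, or stayed unresolved. In BLM the Foxp3 class led with 16 members, followed by 11 of the Cd4 class, 6 unresolved, 5 of the Cd8 class and 1 NK cell. In naive the order was different: 7 were of the Cd8 class, 5 of the Cd4 class, 5 unresolved, 4 of the Foxp3 class and 2 NK cells, with 1 cell of equal Cd4 and Cd8. The Foxp3 share of the members was thus 41.0% (25.6 to 57.9%) in BLM and 16.7% (4.74 to 37.4%) in naive, and these intervals overlapped. This order turned with depth: with each cell thinned to 1000 UMIs before all gates, an average of 7.55 BLM members was left, of which 52.8% were unresolved, 15.9% of the Cd8 class, 14.4% of the Foxp3 class and 13% of the Cd4 class.

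**Figure D1:**
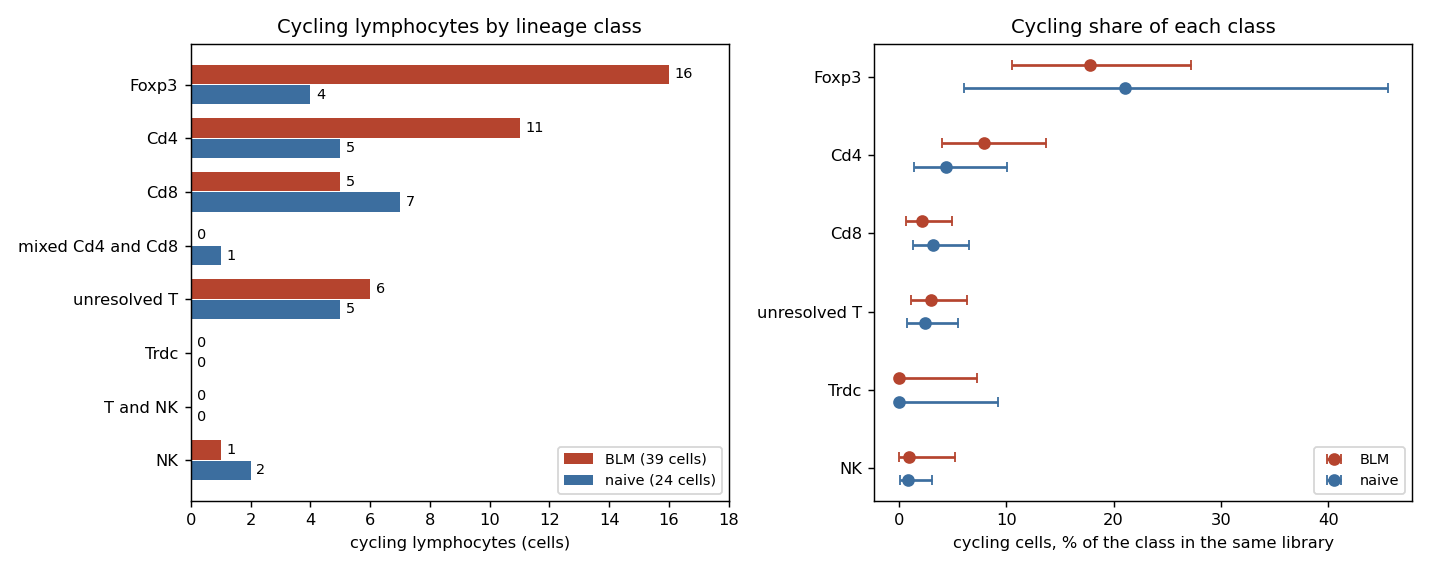
Left, number of cycling lymphocytes in each lineage class (bars, cells; BLM red, naive blue). Right, cycling cells as a percentage of all T and NK cells of the class in the same library, with exact 95% counting intervals; the Foxp3 class had the highest point values, 17.8% and 21.1%, and NK cells some of the lowest, 0.962% and 0.870%.

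Within the lineages, the Foxp3 class had the highest cycling share of the classes with at least 10 cells in both libraries. In BLM, 16 of 90 Foxp3 class cells cycled, or 17.8% (10.5 to 27.3%), against 22 of 625 T cells without Foxp3, or 3.52% (2.22 to 5.28%). In naive the numbers were 4 of 19, or 21.1% (6.05 to 45.6%), against 18 of 581, or 3.1% (1.85 to 4.85%). The 2 intervals within each library did not overlap, while for the same class the BLM and naive intervals did.

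The Cd4 class came next, with 11 of 139 cells in BLM, or 7.91% (4.02 to 13.7%), and 5 of 113 in naive, or 4.42% (1.45 to 10%). Without the cells holding genes of other types, the Cd4 class shares were 8.03% and 2.86%. The Cd8 class cycled in 5 of 232 cells, or 2.16% (0.703 to 4.96%), and in 7 of 218, or 3.21% (1.30 to 6.5%). For NK cells the share was 1 of 104, or 0.962% (0.0243 to 5.24%), and 2 of 230, or 0.870% (0.105 to 3.11%). Every one of these BLM and naive intervals overlapped. No Trdc class cell cycled among 49 in BLM and 38 in naive, which allows shares of up to 6.12% and 7.89% by the limit of 3 cells, and up to 7.25% and 9.25% by the exact interval.

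Depth moved with these shares. A deeper cell more readily reaches 1 Foxp3 UMI and 4 cycling UMIs, and both the Foxp3 class and the cycling cells are set by such limits. Among cells with at least 5000 UMIs, 15 of 24 Foxp3 class cells cycled in BLM, or 62.5% (40.6 to 81.2%), against 16 of 42 T cells without Foxp3, or 38.1% (23.6 to 54.4%). In naive the deep cells gave 4 of 7, or 57.1% (18.4 to 90.1%), against 16 of 46, or 34.8% (21.4 to 50.2%). The Foxp3 class stayed higher in point value, with intervals that overlapped in both libraries. It was no longer the highest in naive, where the deep Cd4 class stood at 5 of 8, or 62.5% (24.5 to 91.5%). Some of these 5 cells held genes of other types. Without such cells, 3 of 105 naive Cd4 class cells of any depth cycled, or 2.86%. The Foxp3 class then stood at 4 of 17, or 23.5%. With every cell thinned to 1000 UMIs before all gates, the BLM shares averaged 3.90% in the Foxp3 class and 1.82% in T cells without Foxp3 over 20 draws, from an average of only 1.15 cycling Foxp3 class cells.

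Foxp3 itself was read without a class gate as well. At 1000 UMIs per cell a Foxp3 UMI was present in an average of 16.3% of the cycling and 5.85% of the other T and NK cells in BLM, and in 5.42% and 1.0% in naive, where the unthinned values were 41.0% and 9.38%, and 16.7% and 1.83%. Scaled to a total of 1000000 UMIs in the same cells (counts per 1000000, CPM), Foxp3 stood at 253 against 100 in BLM, a log2 ratio of 1.34 (0.95 to 1.71), and at 38.9 against 14.0 in naive, a log2 ratio of 1.48 (0.29 to 2.54). B cells, which should lack the gene, gave a background at lower depth. Among cells with at least 4 B cell list UMIs and no CD3 or cycling UMI, 2 of 561 in BLM and 0 of 734 in naive held a Foxp3 UMI. Their median depths were 1692 and 1962 UMIs against 6915 and 9014 in the members, so the background at the members' depth was not measured. None was counted in the 103 and 228 NK cells outside the cycle.

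The class make-up of all T and NK cells also differed between the libraries, with the Foxp3 class at 9.38% of the other T and NK cells in BLM and 1.83% in naive. When the BLM class sizes were kept and each class was given its naive cycling share, the expected BLM share was 4.70% (3.07 to 7.37% at the ends of the naive Foxp3 interval), next to the observed 4.71%. The near match joins classes of opposite sign: BLM stood above naive in the Cd4 class (7.91% against 4.42%). It stood below in the Foxp3 (17.8% against 21.1%) and Cd8 classes (2.16% against 3.21%). With at least 3 CD3 UMIs 6.20% was expected and 5.34% observed, and with at least 6 cycling UMIs 3.88% and 4.35%. The part of class make-up was not tested. The expected share rests on 4 cycling naive Foxp3 class cells. It was 0.211% against an observed 1.44% when cells with UMIs of B cell or myeloid genes were left out, which kept none of those 4.

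Beyond lymphocytes, 323 cells passed the limit on cycling genes, 205 in BLM and 118 in naive. Cycling lymphocytes were 19.0% of them in BLM (13.9 to 25.1%) and 20.3% in naive (13.5 to 28.7%). Cells over the macrophage limit made up 126 and 43 cells, or 61.5% and 36.4%. The cycling macrophages held 83.6 and 105 CPM of the T cell receptor complex list, against 4773 and 5032 in the cycling lymphocytes. That list includes the CD3 chains of the rule, and the macrophage limit split the groups, so this gap follows from the choice of cells.

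The cycling lymphocytes held genes of both DNA synthesis and division. A list of 41 S phase genes, such as Pcna, the sliding clamp of DNA polymerase, and Rrm2, a subunit of the enzyme that makes deoxynucleotides, summed to 5557 CPM in BLM and 6530 CPM in naive. In the other T and NK cells it summed to 1232 and 1369 CPM, so that the log2 ratios were 2.17 (2.09 to 2.26) and 2.25 (2.17 to 2.34). A list of 51 G2 and M phase genes without the 4 choosing genes summed to 14412 and 13713 CPM, with log2 ratios of 2.48 (2.43 to 2.54) and 2.17 (2.12 to 2.23). As the cells were selected on cycling genes, these values describe them and support nothing.

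Single cells spread widely along both lists. The S phase list took a median of 0.483% of the UMIs of a BLM member (0.0225 to 1.46%) and 0.685% of a naive one (0.0165 to 1.45%), and the G2 and M list 1.64% (0.194 to 2.75%) and 1.23% (0.0434 to 2.89%). More UMIs of the S phase than of the G2 and M list were counted in 4 of 39 BLM and 5 of 24 naive members. The 4 choosing genes are transcribed mostly late in the cycle, so the rule favours cells past early S phase.

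**Figure D2:**
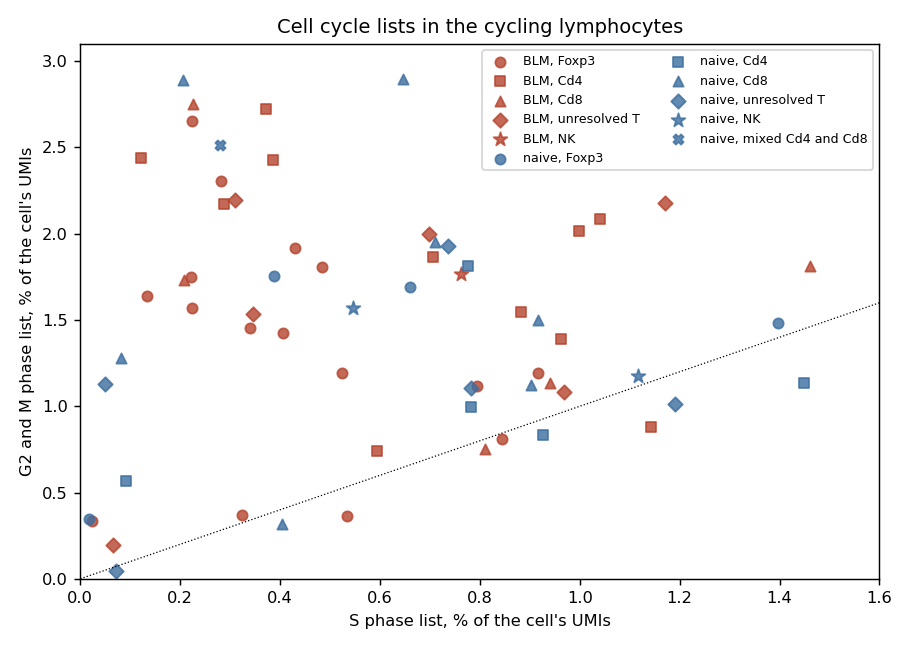
Each point is 1 cycling lymphocyte (colour, library; shape, lineage class). The x axis gives the S phase list and the y axis the G2 and M phase list, both as a percentage of the cell's UMIs, and cells under the dotted line of equal values, 4 in BLM and 5 in naive, held more of the S phase list.

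Against the other T and NK cells of their own library, the members held less of the genes of resting and recirculating T cells. A list of 8 such genes summed to 929 against 3791 CPM in BLM, a log2 ratio of −2.03 (−2.20 to −1.86), and to 1432 against 4351 CPM in naive, a log2 ratio of −1.60 (−1.76 to −1.45). Klf2, the factor that holds T cells in quiescence, stood at 83.4 against 609 CPM in BLM and at 233 against 680 CPM in naive. Il7r, the receptor of the survival cytokine IL-7, stood at 293 against 1064 and at 136 against 979 CPM.

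The cytotoxic list was lower as well, with log2 ratios of −3.21 (−3.42 to −3.0) in BLM and −1.81 (−1.93 to −1.70) in naive. Without NK class cells these ratios were −2.07 (−2.33 to −1.81) and −1.25 (−1.46 to −1.05). Trdc counted 0 UMIs in the BLM members and 322 in the other cells, and 2 against 292 in naive. Ctla4, the inhibitory receptor of Tregs and activated T cells, was higher in the members of both libraries, with log2 ratios of 1.02 (0.77 to 1.27) and 1.98 (1.62 to 2.33). Il2ra, the high-affinity chain of the IL-2 receptor, was higher in BLM, at 1.48 (1.22 to 1.74), and stood at −0.04 (−0.83 to 0.66) in naive. These ratios mix lineages, and the part of the class make-up in them was not tested.

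The 16 cycling Foxp3 class cells of BLM each held 1 to 15 Foxp3 UMIs, with a median of 3. Only 3 of them, and 1 of the 4 naive ones, rested on a single Foxp3 UMI. Foxp3 lies at chrX:7573644-7595245 on the plus strand of GRCm38. Other Treg genes were present in most of them: Ikzf2, the Helios factor, in 15 of 16 cells, Il2ra in 15 and Ctla4 in 14. Thus nearly all of these cells held at least 1 UMI of Treg genes that the gate did not use. The cycling Cd4 class of BLM was not without them, at 160, 58.1 and 262 CPM of Ikzf2, Il2ra and Ctla4. In the cycling Foxp3 class they stood at 591, 878 and 757 CPM.

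Il1rl1 (ST2) was present in 10 of the 16, with a median of 4.5 UMIs and a highest value of 16. Gata3, the factor that drives ST2 expression, was present in 14 cells, with a median of 5.5 and a highest value of 16. Pdcd1, the PD-1 inhibitory receptor, was present in 10, with a median of 1 and a highest value of 11. Il1rl1 lies at chr1:40429570-40465415 on the plus strand. Neither gene was counted in the deepest of these cells, at 21654 UMIs, or in the shallowest, at 4443 UMIs.

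The 4 cycling Foxp3 class cells of naive held 1, 3, 3 and 3 Foxp3 UMIs. Ikzf2 and Ctla4 were present in all 4, with 43 and 53 UMIs in sum. In contrast to BLM, these cells held no Gata3, no Pdcd1 and no Areg UMI, and a single Il1rl1 UMI in 1 cell. The comparison rests on 4 cells, and the other 15 Foxp3 class cells of naive held 20 Il1rl1, 16 Gata3 and 7 Areg UMIs. The naive member of equal Cd4 and Cd8 held no Foxp3 UMI but 5 Il1rl1 and 10 Gata3 UMIs. It also held 76 UMIs of a list of 15 Treg genes, so the contrast covers only cells with a Foxp3 UMI.

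Tff1, a secreted trefoil peptide otherwise known from gastric mucosa, was counted in 6 of the 16 BLM cells of the Foxp3 class, with 1 to 3 UMIs each and 10 in sum. The other 74 Foxp3 class cells of that library held 14 Tff1 UMIs in 10 cells. As CPM the levels were 57.4 and 57.9, a log2 ratio of −0.01 (−1.34 to 1.26), so the cycling cells held as much per UMI as the rest within a wide interval. In naive, 1 Cd4 class and 1 mixed member held 1 UMI each, and none was counted in the 821 other T and NK cells, which allows up to 3 UMIs over the group. Tff1 lies at chr17:31161395-31165277 on the minus strand.

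**Figure D3:**
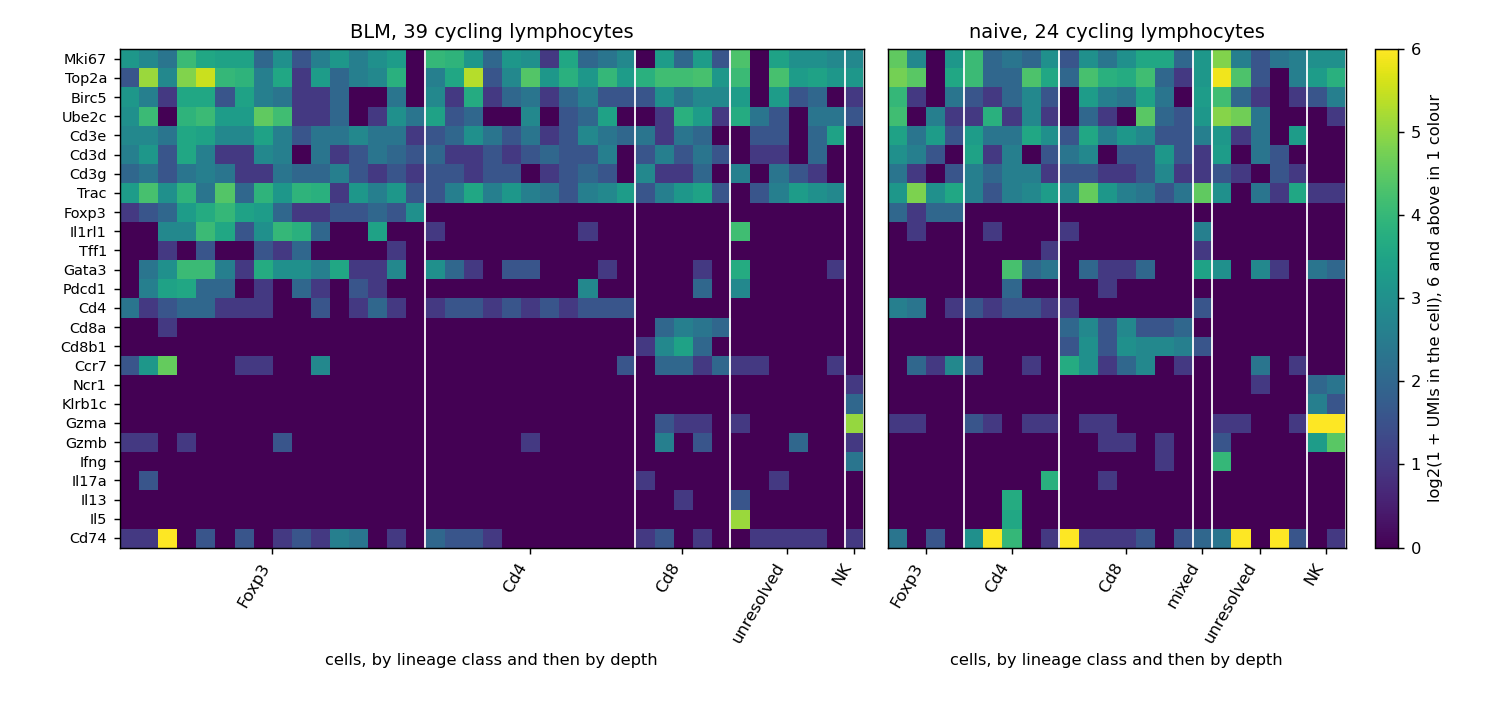
UMIs of 26 genes (rows) in each of the 39 BLM and 24 naive cycling lymphocytes (columns, by lineage class and then by depth), on a colour scale of log2(1 + UMIs) with 6 and above in 1 colour. Il1rl1, Gata3 and Pdcd1 fill much of the BLM Foxp3 block and are nearly empty in the naive one, and Cd74 is bright in 1 BLM and 4 naive cells.

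The members of the other classes were few, and some carried effector genes of a distinct kind. The single NK cell of BLM held 32 Gzma and 4 Ifng UMIs, and the 2 of naive held 76 and 146 Gzma and 9 and 21 Gzmb UMIs. As CPM the naive pair stood at 14985 for Gzma against 10870 in the other NK cells, a log2 ratio of 0.46 (0.26 to 0.66) that rests on 2 cells.

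Several UMIs of the type 2 cytokine genes Il5 and Il13 stood in 2 members, and a BLM Cd8 class member held 1 Il13 UMI. An unresolved BLM cell of 14442 UMIs held 33 Il5, 2 Il13, 21 Arg1, 17 Il1rl1 and 12 Gata3 UMIs but no Trac, Cd3e or Cd3d, and passed the T gate on 5 Cd3g UMIs alone, which goes against its label as a T cell. Its UMIs of a list for group 2 innate lymphoid cells (ILC2s), tissue cells that make these cytokines without an antigen receptor, summed to 115. A naive Cd4 class cell held 11 Il5, 12 Il13 and 18 Gata3 UMIs with 5 of Trac. It also held 19 UMIs of the B cell list and was among the highest Scrublet scores.

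Il5 was otherwise rare, with 7 UMIs in 3 of the 789 other BLM cells and 2 UMIs in 2 of the 821 other naive cells. A naive Cd4 class member held 13 Il17a UMIs, the cytokine of Th17 cells, while none was counted in the 108 other Cd4 class cells of the library. The deepest member, an unresolved naive cell of 35760 UMIs, held 15 Ifng UMIs and the highest cycling sum, 132.

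BLM and naive members were then compared across genes by their summed CPM. A gene was ranked if it had at least 20 UMIs in the 2 groups together and occurred in at least 10% of the cells of the higher group. Of 4499 such genes, 275 were over 2-fold higher in BLM (6.11%) and 305 over 2-fold lower (6.78%), around a median log2 ratio of 0.01. With far more cells, the other T and NK cells had 39 genes higher and 53 lower of 4131. Low counts widen the spread of ratios, so these numbers of genes are not comparable.

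Treg and activation genes stood on the BLM side, in the cycling and in the other T and NK cells. Of the 12 Treg list genes with enough UMIs, 7 were over 2-fold higher in BLM (Areg, Foxp3, Il1rl1, Il2ra, Klrg1, Tnfrsf4 and Tnfrsf9) and 0 lower, with a median log2 ratio of 1.32. Among the other T and NK cells 6 of 10 ranked Treg list genes were higher and 0 lower, with a median of 1.31. Il1rl1 stood at 333 against 31.1 CPM, a log2 ratio of 3.42 (2.39 to 4.67). Il2ra stood at 543 against 70 CPM, a log2 ratio of 2.96 (2.25 to 3.74). Foxp3 had a log2 ratio of 2.70 (1.75 to 3.81). In the other T and NK cells the same genes had log2 ratios of 2.47 (2.09 to 2.88), 1.44 (1.17 to 1.70) and 2.84 (2.30 to 3.43).

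Of 13 activation and checkpoint genes, 7 were higher (Batf, Cd69, Il2ra, Pdcd1, Tnfrsf4, Tnfrsf9 and Tox) and 0 lower, with a median of 1.42. Il2ra, Tnfrsf4 and Tnfrsf9 are also in the Treg list, so the 2 counts are not separate. Among the other T and NK cells 5 of 12 ranked activation genes were higher and 0 lower, with a median of 0.66. Pdcd1 counted 55 against 4 UMIs, a log2 ratio of 3.45 (2.01 to 5.37), and 1.64 (1.26 to 2.03) in the other cells. The tissue residence list had 2 of 7 higher, Cxcr6, a receptor of lung-resident T cells, and Rgs1, a brake on chemokine signals, and 0 lower. The Foxp3 class, which was 41.0% of the BLM and 16.7% of the naive members, moved with these values, and its part in them was not tested.

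Several of the most different genes rested on 1 cell. Arg1 counted 28 UMIs against 0, which is at least 7.41-fold higher when the naive group is set to a floor of 3 UMIs, but 75% of its UMIs came from the Il5 cell above. Fabp5, a fatty acid chaperone, had a log2 ratio of 2.04 (1.49 to 2.64), with 57.8% of its BLM UMIs in 1 cell, and 0.87 without the cells holding genes of other types. More widely spread were Bc1, a small noncoding RNA, with 58 UMIs in 14 cells against 2 in 2 (4.52, 2.61 to 7.60), Hlf, a transcription factor, with 49 in 12 against 3 in 2 (3.70, 2.06 to 6.02), and Rgs16, a regulator of G protein signals, with 44 in 12 against 5 in 5 (2.80, 1.47 to 4.50). Nrn1, neuritin, counted 20 UMIs in 4 BLM cells and 0 in naive, at least 5.29-fold higher.

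On the naive side stood cytotoxic genes, with most of their UMIs in the 2 NK cells. All 6 ranked genes of the cytotoxic list were over 2-fold lower in BLM, with a median log2 ratio of −2.46, among them Ccl5, the chemokine RANTES (71 against 214 UMIs, −1.93, −2.33 to −1.53), Nkg7, a granule protein (42 against 109, −1.71, −2.26 to −1.18), and Tbx21, the T-bet factor (5 against 34, −3.10, −4.81 to −1.74). Gzma had a log2 ratio of −2.99 (−3.54 to −2.49), but 62.4% of its naive UMIs came from 1 NK cell. Prf1, perforin, counted 1 against 21 UMIs, 61.9% of them in 1 cell. Klra1, an NK receptor, counted 0 against 20, at least 8.40-fold lower, with 70% of them in 1 cell. The Cd8 list had 2 of 3 genes lower, Cd8b1 and Runx3, and the NK list 3 of 5. NK class members held 473 of the 682 naive and 64 of the 194 BLM UMIs of the cytotoxic list. The list had a log2 ratio of −2.15 (−2.39 to −1.92) with them and −1.09 (−1.42 to −0.77) without them, when 4 of its genes were ranked, 1 higher and 1 lower.

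The recirculation list had 4 of 7 genes lower in BLM, among them Klf2 (−1.49, −2.20 to −0.81), S1pr1, the receptor by which T cells leave lymph nodes (−1.31, −1.98 to −0.66), and Tcf7, a factor of naive and memory T cells. Il7r of the same list was higher, at 1.11 (0.53 to 1.71). With each cell weighted equally, the Klf2 value shrank to −0.52.

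Genes of MHC class II were among the 10 lowest, and they rested on few cells. H2-Eb1 had a log2 ratio of −3.55 (−4.04 to −3.09), H2-Ab1 −3.41 (−3.77 to −3.06), H2-Aa −3.07 (−3.41 to −2.74) and Cd74 −2.63 (−2.92 to −2.35). Without the 2 BLM and 5 naive members that held genes of other types they stood at −0.35, −0.82, −0.67 and −0.38. Plbd1 and Naaa, lysosomal enzymes, went from −3.71 and −3.57 to −1.18 and −1.40, and Fosb, an immediate-early factor, from −3.29 to −1.53. The dendritic cell list moved with them, at 914 CPM in BLM and 5483 CPM in naive, with 3 of its 4 ranked genes lower, and at 542 and 675 CPM with 0 of 2 lower without those cells.

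The remaining lists differed in how many genes were over 2-fold apart. The T cell receptor complex list had 0 of 13 in either direction, the S phase list 1 higher and 1 lower of 37, the G2 and M list 0 and 1 of 43, and the growth list 1 and 1 of 14. The quiescence list had 0 higher and 4 lower of 12. The ILC2 list had 4 of 5 higher, of which Il1rl1 and Areg are also in the Treg list and Arg1 came mainly from 1 cell. The monocyte list had 1 higher and 1 lower of 3. The macrophage list had 5 of 6 lower, but cells with genes of other types held 259 of its 529 naive UMIs. Without them 2 of 4 were lower and its log2 ratio was −0.46 (−0.70 to −0.22) in place of −0.98 (−1.18 to −0.78). The list includes the macrophage genes whose sum the rule capped in every member, among them Plet1 and Atp6v0d2 of the 5 lower. Its values therefore describe the chosen cells and support nothing. The neutrophil list had 3 of 3 higher, at a log2 ratio of 1.39 (0.82 to 1.98), with 76 of its 112 BLM UMIs in such cells. Without them no gene of it was ranked and the ratio was 0.05 (−0.74 to 0.87). The gamma delta T list had 1 of 1 lower, the CD4, plasma cell and stromal lists had 0 of 1 each in either direction, and no gene of the B cell, basophil and erythroid lists was ranked.

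**Figure D4:**
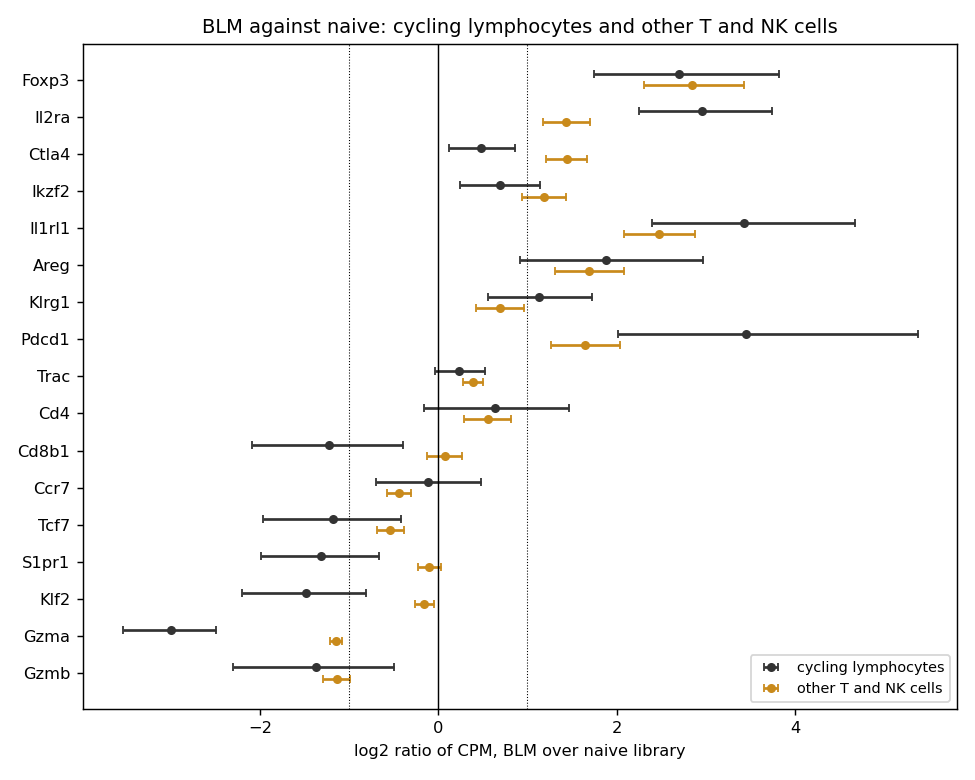
Log2 ratio of CPM, BLM over naive, for 17 named genes in the cycling lymphocytes (black) and in the other T and NK cells (orange), with exact 95% counting intervals and dotted lines at 2-fold. Foxp3, Il2ra, Il1rl1 and Pdcd1 lie to the right in both kinds of cell (Foxp3 at 2.70 and 2.84) and Gzma to the left (−2.99 and −1.14).

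Cycling Foxp3 class cells of BLM were also set against the 74 other Foxp3 class cells of their library. Of 3483 genes, 414 were over 2-fold higher (11.9%) and 506 over 2-fold lower (14.5%). Genes of DNA synthesis and mitosis headed the higher side. The S phase list had 16 of 21 higher and 0 lower, and the G2 and M list 24 of 26 and 0, as follows from the rule. Ccna2, cyclin A2, counted 64 UMIs in 13 of 16 cells and 0 in the 74 others, at least 29.6-fold higher at the same floor. Nusap1, a spindle protein, was at least 23.1-fold higher, Ccnb2, cyclin B2, at least 13.9-fold, Tpx2, a spindle assembly factor, at least 13.4-fold, and Prc1, a midzone protein, at least 11.1-fold. Cenpe and Cdca8, which act at the centromere, counted 41 and 49 UMIs against 1 and 2. Pclaf, a PCNA partner, had a log2 ratio of 4.36 (3.44 to 5.45), Tuba1b, an alpha tubulin, 4.36 (3.39 to 5.52), and Stmn1, a regulator of microtubules, 3.81 (3.02 to 4.72).

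Growth genes were higher in part. Of 11 ranked genes, 4 were over 2-fold higher (Npm1, Ncl, Eno1 and Shmt2) and 0 lower. Npm1, nucleophosmin of ribosome assembly, had a log2 ratio of 1.12 (0.90 to 1.34), Ncl, nucleolin, 1.01 (0.77 to 1.26), and Eno1, a glycolytic enzyme, 1.09 (0.50 to 1.70). Odc1, the first enzyme of polyamine synthesis, stood at −0.74 (−0.93 to −0.55). Of 11 ranked quiescence genes, 5 were lower and 1 higher, among them Cdkn1b, the p27 inhibitor of cyclin kinases, at −2.05 (−2.82 to −1.36), and Btg1 at −1.10 (−1.44 to −0.77).

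The Treg list stood lower per UMI in the cycling cells, at a log2 ratio of −0.89 (−1.0 to −0.79), but this was not particular to it. The T cell receptor complex list stood at −0.48 (−0.61 to −0.36) and the activation list at −0.77 (−0.88 to −0.65). The growth list stood higher, at 0.33 (0.22 to 0.43). Of 14 ranked Treg list genes, 0 were over 2-fold higher and 5 lower: Icos, a co-stimulatory receptor (−1.09, −1.35 to −0.83), Il1rl1 (−1.17, −1.53 to −0.82), Tigit, an inhibitory receptor, and Tnfrsf4 and Tnfrsf9, the receptors OX40 and 4-1BB. Ikzf2 and Ctla4 had log2 ratios of −0.77 (−1.12 to −0.43) and −0.68 (−0.99 to −0.38), and Il2ra −0.23 (−0.53 to 0.07). Foxp3 (−0.95, −1.33 to −0.57) is the gate gene. A shallow cell that passes at 1 UMI enters with a high CPM, and the other Foxp3 class cells had a median of 2902 UMIs against 8186 in the cycling ones.

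The residence list had 6 of 7 lower, with Itgae, the CD103 integrin, at −2.85 (−4.53 to −1.53) and Cxcr6 at −1.74 (−2.83 to −0.78). Il7r (−2.38, −2.95 to −1.86) and Hopx, a homeodomain protein (−1.93, −2.20 to −1.66), were among the 10 lowest of all genes, as was Neurl3, a ubiquitin ligase (−2.18, −2.71 to −1.69). Tcp11l2 counted 0 UMIs against 31 in 26 of the 74 others, at least 7.45-fold lower. Il1b, interleukin 1 beta, had a log2 ratio of −2.90 (−3.62 to −2.26), of which 58.7% of the UMIs in the other cells came from 1 cell. Without the cells holding genes of other types it stood at −0.76. Ptgs2, Lilr4b, Jmy and Zdhhc23 counted 1 UMI each against 34, 33, 29 and 27, and Itgax, the CD11c integrin, 0 against 22, at least 5.29-fold lower. The neutrophil and dendritic cell lists had 2 of 2 ranked genes lower each, at log2 ratios of −3.02 and −1.05, which were −0.57 (−1.53 to 0.32) and −0.15 (−0.57 to 0.27) without the cells holding genes of other types.

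The Cd4 class of BLM showed the same cycle genes and a wide gap in recirculation genes. Of 3443 genes, 386 were over 2-fold higher in the 11 cycling than in the 128 other cells (11.2%) and 682 over 2-fold lower (19.8%), around a median log2 ratio of −0.13. The S phase list had 15 of 15 higher and the G2 and M list 15 of 17. Rrm2 counted 44 UMIs in 9 of 11 cells and 0 in the others, at least 72.7-fold higher. Pclaf had a log2 ratio of 5.91 (4.93 to 7.07) and Stmn1 4.98 (4.13 to 5.95), while Smc2, a condensin subunit, stood at 4.58 (3.29 to 6.14). Nusap1, Ccna2, the histone gene Hist1h2ae, Cdca8 and Spc24, a kinetochore subunit, counted 39, 34, 29, 22 and 19 UMIs against 1 each, and Cenpe 21 against 4.

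All 8 recirculation genes were over 2-fold lower, and the list summed to 669 against 4403 CPM, a log2 ratio of −2.72 (−3.18 to −2.30). Igfbp4, abundant in naive CD4 T cells, counted 2 UMIs against 209 in 38 of the 128 others, a log2 ratio of −4.40 (−7.45 to −2.53). Klf2 stood at −3.21 (−5.11 to −1.83), Il7r at −2.66 (−3.51 to −1.92) and Ccr7, the lymph node chemokine receptor, at −3.52 (−6.59 to −1.64). Gimap6, a GTPase of T cell survival, counted 2 against 298 UMIs (−4.91, −7.96 to −3.04), and Bcl2, which blocks apoptosis, 0 against 67, at least 4.51-fold lower. Tnfsf8, the CD30 ligand, counted 0 against 82, at least 5.52-fold lower, and Zfp281, a zinc finger factor, 0 against 76, at least 5.11-fold lower. Gm20186, Nr4a3, an orphan receptor induced by antigen, and Ssh2 counted 3, 2 and 2 UMIs against 253, 164 and 116.

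In the same class, the quiescence list had 8 of 11 lower and 0 higher, with Cdkn1b at −2.07 (−3.15 to −1.16). The residence list had 2 of 6 higher and 0 lower, among them Cxcr3, a receptor for chemokines of inflamed tissue, at 1.76 (0.70 to 2.77). The growth list had 4 of 11 higher and the Treg list 3 of 9 lower. The recirculation list in the Foxp3 class had 2 of 6 lower and 0 higher, with S1pr1 at −0.73 (−1.64 to 0.13). The difference between the classes was not tested, and the Cd4 class of the other cells holds both naive and effector cells.

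**Figure D5:**
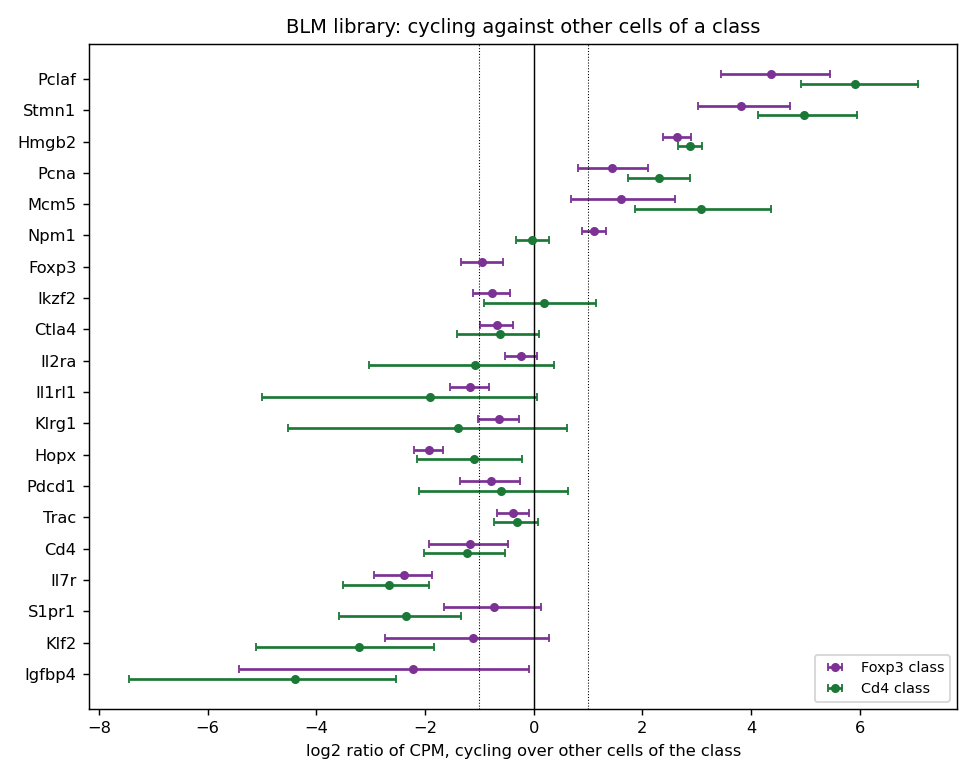
Log2 ratio of CPM, cycling over other cells of the same class in the BLM library, for 20 named genes in the Foxp3 class (purple, 16 against 74 cells) and the Cd4 class (green, 11 against 128 cells), with exact 95% counting intervals and dotted lines at 2-fold. Pclaf and Stmn1 lie far to the right in both classes, Il7r to the left, and Klf2 and Igfbp4 furthest left in the Cd4 class (−3.21 and −4.40).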

How the data were processed

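Cells were captured and reverse transcribed on the BD Rhapsody system. For each library the authors deposited the UMI counts of every gene in every cell, error corrected by the Rhapsody pipeline 1.8 with GENCODE mouse release M19 on GRCm38, and no normalisation. Genes that 1 table does not list were taken as 0. Python 3.11.15, numpy 2.4.6, scipy 1.17.1 and matplotlib 3.10.9 were used, and Scrublet scores came from scanpy 1.11.5.

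UMIs were summed over the cells of a class and given as CPM of the same cells. Ratios carry exact conditional intervals and shares Clopper-Pearson intervals, at 95%. Genes needed 20 UMIs in both groups together and presence in 10% of the cells of the higher group, and a difference over 2-fold was counted. Genes were named from a set list, as the 10 highest and 10 lowest of each comparison by the end of the interval nearer 0, and from 24 gene lists by most UMIs. Genes and cells outside this rule were chosen after their values were seen. The members and lists were chosen with earlier results of these data known. Thinning to 1000 UMIs used 20 draws and left out 4 BLM and 2 naive T and NK cells. Alternatives chosen after seeing the data left out cells with genes of other types or NK class cells, required 2 Foxp3 UMIs, thinned the lineage gates alone, and kept cells with at least 5000 UMIs. Positions are those of GENCODE on GRCm38. A few genes that the naming rule gave are not reported here.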

Additional observations from a re-analysis of the deposited data

How the results depend on the processing

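Shares depended on depth and on the cells admitted. Cycling shares of all passing cells, BLM then naive, were 0.177% and 0.0491% with each cell thinned to 1000 UMIs and 2.39% and 1.93% among cells with at least 5000 UMIs. In BLM that share was 1.19%, 37 of 3112, without cells holding 50 dendritic or neutrophil or 10 B cell list UMIs. The same exclusion took the total of passing cells from 4526 to 3112. Among T and NK cells the thinned shares were 1.8% and 0.428% and the deep-cell shares 45.6% and 35.5%. Leaving out cells with 2 B cell list UMIs or 3 of S100a8, S100a9 and Lyz2 gave 1.44% and 0.208%. It removed 32 of 39 and 23 of 24 members. Of the 694 naive cells of every kind that it left, 1 was a cycling lymphocyte, or 0.144%.

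The Foxp3 share of members was 14.4% and 1.32% thinned, and 5.77% and 1.25% with the lineage gates alone thinned. With all gates thinned, naive kept an average of 1.9 members, 0.05 of them of the Foxp3 class. With the lineage gates alone thinned it was 0.3 of 24. In naive the Foxp3 share of members was 0% under the B cell and myeloid exclusion. Within classes, that exclusion gave 7.14% (Foxp3), 1.16% (Cd4) and 0% (NK) in BLM, and 0%, 0% and 0% with 0.847% (Cd8) in naive. Thinning gave 3.90% (Foxp3) and 1.98% (Cd4) in BLM, and 1.67%, 0.147%, 1.13% (Cd8) and 0.0713% (NK) in naive. These naive values rest on averages of 0.05, 0.05, 0.8 and 0.1 cycling cells. Thinning the lineage gates alone gave 7.55% (Foxp3) and 3.37% (Cd4) in BLM and 0.425% (Cd4) in naive. Deep cells gave 62.5%, 53.8%, 23.5% and 0% (Foxp3, Cd4, Cd8, NK) in BLM, and 57.1%, 62.5%, 23.8% and 25.0% in naive.

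Counts of genes over 2-fold apart, higher and lower, were 586 and 651 for BLM against naive at a minimum of 10 UMIs, and 66 and 94 at 50. For the Foxp3 class they were 808 and 838, and 145 and 190. For the Cd4 class 781 were higher at 10 UMIs, and 108 and 241 at 50. Fewer genes are ranked at a higher minimum, so these counts cannot be compared with one another as amounts of difference. Ccr7 in cycling against other Foxp3 class cells was 0.92 on the log2 scale, −0.088 without the highest Scrublet scores and −0.016 without cells of other-type genes, since 23 of its 41 UMIs lay in 1 cell. No paired analysis was possible because each condition has 1 library.

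Limits on the mitochondrial share, genes per cell and CD3 UMIs moved none of these shares beyond their counting intervals. Every class other than Foxp3 and Cd4 of BLM had fewer than 10 members, and cell-to-cell and mouse-to-mouse variation is in no interval.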
